A study of Homo sapiens with 4 samples.

Results

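Natural antisense long non-coding RNAs were taken here as the genes whose symbol ends in -AS and a number and whose raw count averaged 20 or more over the 4 libraries. This gave 191 RNAs of 413 with such a symbol, in a table of 24014 genes, and 222 fell below the minimum. For 183 of the 191 the gene named before the -AS, here called the sense gene, was also in the table (181 different genes). The other 8, with no gene of that exact symbol in the table, were C17orf76-AS1, DLGAP1-AS1, DLGAP1-AS2, HOXD-AS1, HOXD-AS2, FGD5-AS1, USP27X-AS1 and PRKCQ-AS1. The minimum was set on the mean of all libraries, and it was passed in both group means by 175 RNAs, only in the control mean by 12, ZBED5-AS1, STARD4-AS1 and DDX11-AS1 among them, and only in the AP1AR-DT_OE mean by 4, FOXD2-AS1 among them. Just inside it lay RASAL2-AS1, with raw counts of 25 and 16 in control and 19 and 20 in AP1AR-DT_OE, and LENG8-AS1, with 20, 30, 17 and 15 in the same order. Just outside lay ARAP1-AS2 (24, 15, 21 and 17) and SIX3-AS1 (5, 33, 27 and 12).

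An antisense RNA is transcribed from the strand opposite a named gene. It may start beside the promoter of that gene, or inside the gene, and run out past the start of the gene (head to head). It may also end into its far side (tail to tail) or lie within its body (nested). RNAs of this class are known both as by-products of promoters that fire in both directions and, for some members, as regulators of the neighbouring gene or as decoys for microRNAs. The symbol says only where the RNA lies, and gives no function.

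The cells were of the established line SK-N-SH, which came from a neuroblastoma and grows as a mix of neuroblast-like and flat, mesenchymal cells. Both control libraries came from wild-type cells given an empty lentivirus without insert, and both AP1AR-DT_OE libraries from cells given a lentivirus carrying AP1AR-DT, a divergent long non-coding RNA that the labels also call AC109347.1, so all cells had been infected. In the second AP1AR-DT_OE sample the genotype and treatment labels read AC109347.2 where its title reads AC109347.1, and the title was followed. The question was which genes change when this bipolar disorder-related RNA is raised. The sources do not say whether the infected cells were a pool or a clone, or whether the libraries of a group came from separate cultures, so p-values measure only the spread between these samples.

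Total counts ran from 21988065 to 26184599 per library. AP1AR-DT itself (RP11-73K9.2 in the table) had raw counts of 3 and 18 in control and 680 and 1065 in AP1AR-DT_OE, with a Log2FC of 6.63 (SE 0.64) and an adjusted p of 3.64e-21 by the DESeq2 Wald test, as its labels give. Of the adrenergic neuroblast markers 6 of 8 had a mean count of 20 or more, TH being not analysed here, and their summed normalized count ran from 20688 to 25418 per library. All 8 mesenchymal markers passed, with sums from 118809 in control 2 to 158005 in control 1. Control 2 had 14724 counts of the mesenchymal factor PRRX1 against 2432, 1131 and 2263 in control 1, AP1AR-DT_OE 1 and AP1AR-DT_OE 2. In normalized counts SNAI2 and YAP1 were also higher in control 2 than in control 1, while FOSL1, FOSL2, VIM, FN1 and CD44 were lower. The controls thus differed in single markers of cell state, in both directions. For PRRX1 both AP1AR-DT_OE libraries lay below both controls in normalized counts (Log2FC -2.02, SE 0.61, adjusted p = 0.431, DESeq2). The part of cell state in the results below was not tested. Low counts piled up at 4 and 8, so that a read pair was worth about 4 counts, and 3 read pairs (12 counts) were taken as the floor of a library. Floors and intervals of this kind cover counting error only. Of the antisense RNAs 14 had a library at or under that floor. In bulk RNA, fewer cells that express a gene and less RNA per cell cannot be told apart.

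Much of what follows turns on where an antisense RNA begins, so the start regions of 4 RNAs are shown first. Each runs from 250 bases before the RefSeq start of the RNA to 50 bases after it, on the strand of the RNA, in GRCh38.p14. ZBED5-AS1, at chr11:10857967-10858266 on the plus strand, is shown because it was the 1 antisense RNA called. Capitals mark the 163 bases that separate the start of ZBED5, which runs to the left, from that of ZBED5-AS1, which runs to the right. UBAC2-AS1 (chr13:99200708-99201007, minus strand) and DDX11-AS1 (chr12:31073798-31074097, minus strand) are shown because they carry letters of the NRF1 motif described below, which the capitals mark. LOXL1-AS1 (chr15:73928199-73928498, minus strand) is shown because its counts were well apart between groups, short of the threshold, and its start has another composition. It has no capitals.
ZBED5-AS1: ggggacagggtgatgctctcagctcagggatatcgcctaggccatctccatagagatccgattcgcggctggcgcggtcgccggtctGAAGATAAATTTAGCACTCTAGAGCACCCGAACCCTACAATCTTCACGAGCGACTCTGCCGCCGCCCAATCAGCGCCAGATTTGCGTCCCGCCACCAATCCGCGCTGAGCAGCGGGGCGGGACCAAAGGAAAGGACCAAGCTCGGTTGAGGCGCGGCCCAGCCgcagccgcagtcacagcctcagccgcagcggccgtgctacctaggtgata
UBAC2-AS1: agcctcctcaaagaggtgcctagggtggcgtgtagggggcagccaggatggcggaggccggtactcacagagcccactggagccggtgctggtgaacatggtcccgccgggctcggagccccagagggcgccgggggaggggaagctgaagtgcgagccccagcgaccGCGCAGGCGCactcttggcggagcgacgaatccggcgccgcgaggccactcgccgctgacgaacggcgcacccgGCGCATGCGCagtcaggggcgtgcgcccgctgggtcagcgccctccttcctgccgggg
DDX11-AS1: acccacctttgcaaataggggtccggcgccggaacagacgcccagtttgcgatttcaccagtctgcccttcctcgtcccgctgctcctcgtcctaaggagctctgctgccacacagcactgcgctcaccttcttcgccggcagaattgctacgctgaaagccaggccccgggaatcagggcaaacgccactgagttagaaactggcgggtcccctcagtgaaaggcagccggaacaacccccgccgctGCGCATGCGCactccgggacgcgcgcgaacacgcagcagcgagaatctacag
LOXL1-AS1: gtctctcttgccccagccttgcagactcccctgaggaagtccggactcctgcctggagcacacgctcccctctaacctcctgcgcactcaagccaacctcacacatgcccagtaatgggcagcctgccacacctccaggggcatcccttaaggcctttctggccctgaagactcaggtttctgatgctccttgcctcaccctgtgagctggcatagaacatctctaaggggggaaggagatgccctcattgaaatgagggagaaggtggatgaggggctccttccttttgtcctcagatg
The ZBED5-AS1, UBAC2-AS1 and DDX11-AS1 windows hold 28, 34 and 27 CpG dinucleotides, and the LOXL1-AS1 window holds 3.

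A single antisense RNA was called. ZBED5-AS1 was lower in AP1AR-DT_OE, no antisense RNA was called higher, and none of the 181 sense genes was called in either direction. The test was the DESeq2 Wald test over all 24014 genes, with a gene called at an adjusted p under 0.05, and it called 0.137% of all genes, 0.0541% lower and 0.0833% higher. The 1 of 191 antisense RNAs is 0.524%, but ZBED5-AS1 met the minimum only through its control mean, so nothing is read from this share. At an unadjusted p under 0.05 there were 3 antisense RNAs (ZBED5-AS1, STARD4-AS1 and LOXL1-AS1), or 1.57%. The shares were 0.816% of all genes and 0.772% of the genes with a mean count of 20 or more. STARD4-AS1 also met the minimum only through its control mean, so nothing is read from the 1.57% either. No sense gene had an unadjusted p under 0.05 with DESeq2 or with the quasi-likelihood test of edgeR, which called 0 of all genes after adjustment.

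ZBED5-AS1 (ENSG00000247271, chr11:10858179-10908972, plus strand, GRCh38) starts 164 bases upstream of ZBED5, a gene that descends from a DNA transposon. Its raw counts were 159 and 140 in control and 19 and 10 in AP1AR-DT_OE. Both AP1AR-DT_OE libraries lay far below both controls, and AP1AR-DT_OE 2 was under the floor. The normalized read count was 145 ± 51.7 in control against 15.4 ± 7.72 under overexpression (SD, n = 2 each), a Log2FC of -3.24 (SE 0.76, adjusted p = 0.016, DESeq2). Between the libraries numbered 1 the log2 ratio was -3.12, and between those numbered 2 the count was at least 9.07-fold lower. The call was absent with the likelihood-ratio test of DESeq2 (adjusted p = 0.0512), with the counts divided by 4 (adjusted p = 0.811, DESeq2) and with edgeR (adjusted p = 1.0), which called no gene of the table, and it was lost without any 1 of the 4 libraries, where the Log2FC ran from -3.87 to -2.80.

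The sense gene was not called. ZBED5 had raw counts of 126 and 421 in control and 127 and 211 in AP1AR-DT_OE, so its groups overlapped, with a Log2FC of -0.43 (SE 0.61, adjusted p = 1.0, DESeq2). The log2 ratio of ZBED5-AS1 to ZBED5 was 0.33 and -1.58 in control and -2.68 and -4.27 in AP1AR-DT_OE. The groups did not overlap in this ratio and their means differed by -2.85, with an exact permutation p of 0.33 (two-sided), the smallest that 2 against 2 libraries can give. ZBED5-AS1 was already called lower and met the minimum only through its control mean. Its ratio repeats that fall, so nothing further is read from it. Of the exon bases of ZBED5-AS1, 16.1% lie opposite exons of other genes, ZBED5 among them. The library kit does not mark the strand, so reads from those bases cannot be told apart.

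LOXL1-AS1 (ENSG00000261801, chr15:73908071-73928248, minus strand) had the lowest p among antisense RNAs with a positive Log2FC. It lies against LOXL1, a lysyl oxidase that cross-links elastin. Its raw counts were 419 and 477 in control and 856 and 776 in AP1AR-DT_OE, so the groups were well apart. The normalized read count was 423 ± 77.3 against 855 ± 119 (SD, n = 2 each), a Log2FC of 1.02 (SE 0.47) with an unadjusted p of 0.0304 and an adjusted p of 1.0 (DESeq2). The log2 ratio was 0.98 between the libraries numbered 1 and 1.07 between those numbered 2. LOXL1 had 12869 and 8191 counts in control and 10333 and 8475 in AP1AR-DT_OE, with a Log2FC of -0.09 (SE 0.51). The antisense RNA and the sense gene have 6.18% of the exon bases of LOXL1-AS1 in common.

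STARD4-AS1, chosen after its values were seen for its unadjusted p of 0.00827 (DESeq2 Wald test, adjusted p 1.0), rested on 1 library. Its raw counts were 6 and 265 in control and 14 and 12 in AP1AR-DT_OE, so control 2 alone was high and control 1 was lower than both AP1AR-DT_OE libraries. The Log2FC of -2.96 (SE 1.12) became 1.01 without control 2 and -3.91 without control 1, the last with a call (adjusted p = 0.00584, DESeq2). The sense gene STARD4, a carrier of cholesterol, was lowest in that same library, with 77, 16, 85 and 155 counts. STARD4-AS1 has 24.2% of its exon bases opposite exons of STARD4 and NREP.

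The larger shifts among the other antisense RNAs did not pass the test. Together with LOXL1-AS1 and the called ZBED5-AS1, described above, they make up the 6 highest and 6 lowest Log2FC values of a set. That set was the RNAs with a mean normalized count of 50 or more whose AP1AR-DT_OE libraries lay on one side of both controls. MFI2-AS1, against the gene for melanotransferrin, had 26, 204, 179 and 188 counts in control 1, control 2, AP1AR-DT_OE 1 and AP1AR-DT_OE 2. Control 1 alone was low, and the Log2FC of 1.03 (SE 0.74) was 2.70 without control 2 and 0.28 without control 1. DICER1-AS1, against the gene for the enzyme that cuts precursor microRNAs, had 75, 99, 127 and 93 counts, a Log2FC of 0.52 (SE 0.65), and DICER1 had 123, 155, 91 and 73, a Log2FC of -0.59 (SE 0.63). Raw counts of DICER1-AS1 overlapped between groups and normalized counts did not. The log2 ratio of DICER1-AS1 to DICER1 was -0.71 and -0.64 in control and 0.48 and 0.35 in AP1AR-DT_OE. The groups were apart by 1.08 on the log2 scale, again with the smallest exact permutation p of 0.33. DICER1-AS1 was named because its normalized groups were apart, so nothing further is read from this ratio. ASH1L-AS1 had 63, 69, 93 and 83 counts (Log2FC 0.56), against the histone methyltransferase gene ASH1L, while TOPORS-AS1 and TMEM44-AS1 had Log2FC values of 0.45 and 0.29. Exons of ASH1L-AS1 overlap those of MSTO1 on the same strand and those of ASH1L on the opposite strand. Its counts may thus include reads of those genes.

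On the lower side, PXN-AS1 had 113, 146, 77 and 59 counts, a Log2FC of -0.75 (SE 0.65), beside PXN, the gene for the focal adhesion protein paxillin, at -0.06. Both AP1AR-DT_OE libraries of PXN-AS1 were below both controls, while PXN had 18938, 15104, 16773 and 13643. PSMD5-AS1 had 143, 156, 97 and 72 counts (Log2FC -0.67, SE 0.63), against the gene of a proteasome assembly chaperone. ACTA2-AS1, against smooth muscle actin, had 203, 290, 171 and 160 counts (Log2FC -0.39), and 51.5% of its exon bases lie opposite exons of ACTA2. UBAC2-AS1 had 80, 120, 81 and 47 counts (Log2FC -0.44), and FLVCR1-AS1, beside a transporter gene, had 282, 447, 247 and 299 (Log2FC -0.23). The adjusted p of each of these RNAs was 1.0 (DESeq2).

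**Figure D1:**
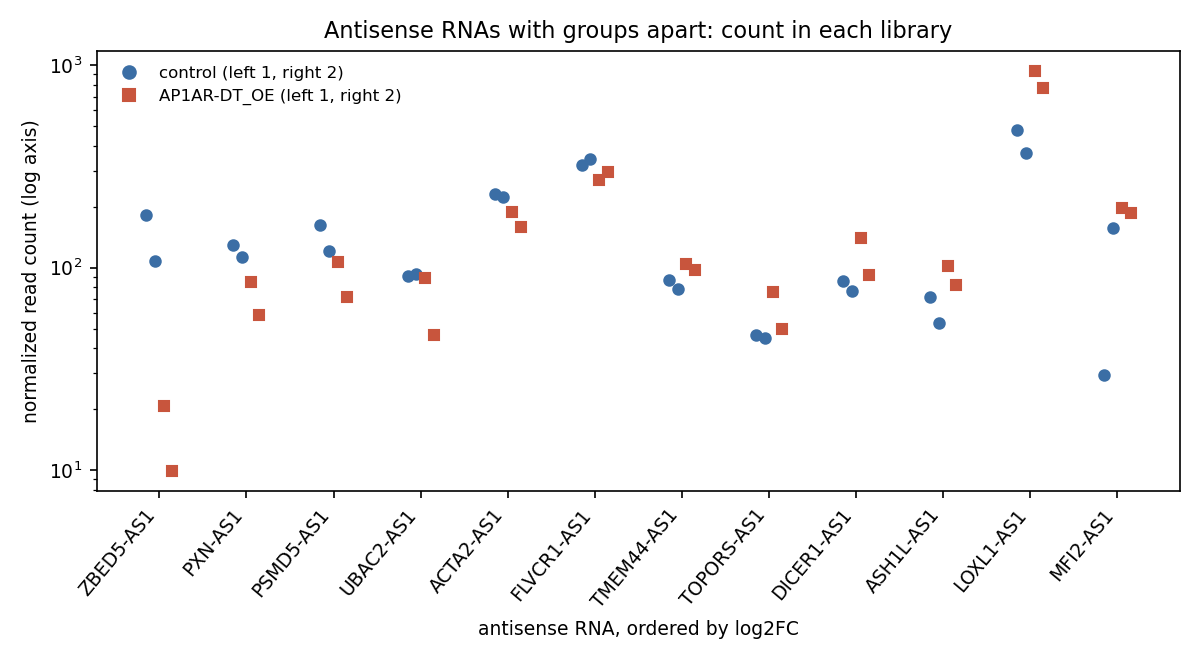
Normalized read count (log axis) in each library for the 6 largest positive and 6 largest negative Log2FC values among antisense RNAs with a mean normalized count of 50 or more and groups apart; circles are the control libraries and squares the AP1AR-DT_OE libraries, number 1 left and number 2 right. ZBED5-AS1 has 181 and 108 in control against 20.8 and 9.93, LOXL1-AS1 has 477 and 368 against 939 and 770, short of the threshold, and MFI2-AS1 has 1 low control.

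Over all 191, the Log2FC centred near 0. The median was -0.04 (quartiles -0.26 and 0.21, range -3.24 to 1.38), against -0.01 for the sense genes and -0.02 for all genes with a mean count of 20 or more. The Log2FC was under 0.5 in size for 147 antisense RNAs and 1 or more in 7. The median SE of a Log2FC was 0.71, at 0.56 for the 80 RNAs with a mean count of 100 or more and 0.85 for the other 111, so changes of the size seen for most could not be detected with 2 libraries a group. Normalized counts of the groups did not overlap for 37 RNAs, 20 higher and 17 lower in AP1AR-DT_OE. That is 19.4%, against 11.1% of all genes with a mean count of 20 or more (5.87% higher, 5.22% lower). Among RNAs with a mean count under 100 the share was 23.4%, against 18.7% of all genes at that level, and among those with 100 or more it was 13.8%, against 8.6%. Some of the 37, such as ZBED5-AS1 and DDX11-AS1, met the minimum only through the mean of the group where they were higher. Nothing is therefore read from these shares of antisense RNAs. Of the sense genes 21 did not overlap (11.6%). Spread between libraries was wide for some, and in 14 antisense RNAs the highest library was at least 4-fold above the lowest, 7.37% of the 190 with no library at 0, against 7.71% of all such genes with a mean count of 20 or more.

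**Figure D2:**
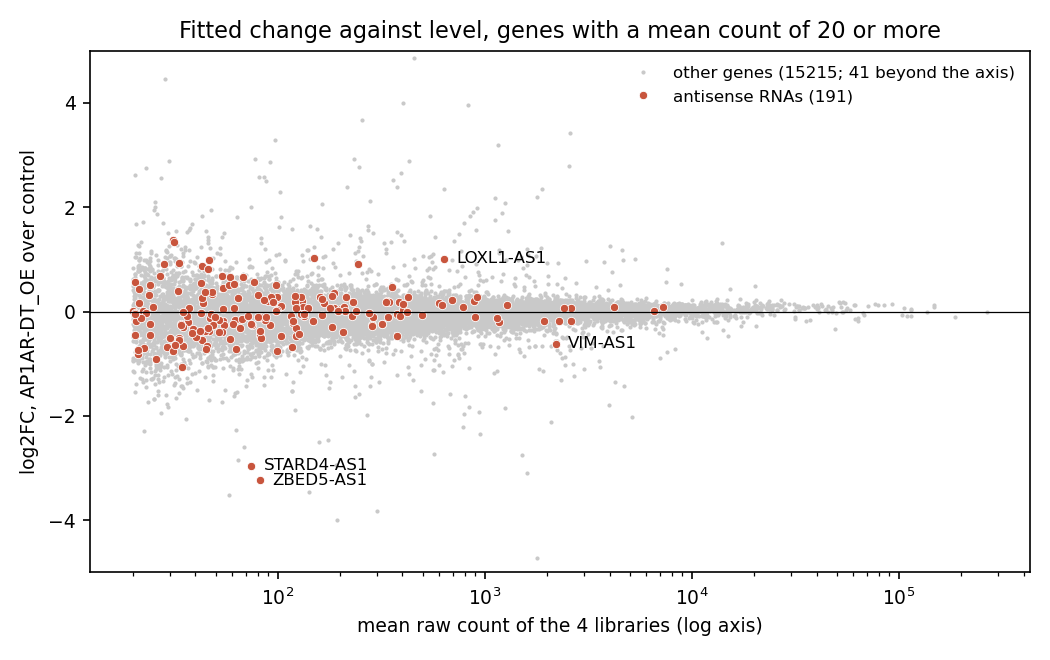
Log2FC of AP1AR-DT_OE over control against the mean raw count of the 4 libraries (log axis); each point is a gene with a mean count of 20 or more, antisense RNAs in red and all others in grey. The antisense RNAs spread around 0 with a median of -0.04, and ZBED5-AS1 and STARD4-AS1 lie apart near -3.

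The symbol covers RNAs of several kinds. The annotation calls 185 of them long non-coding RNA. It calls 4 protein-coding (MMP24-AS1, RPA3-AS1, TOPORS-AS1 and NCBP2-AS2) and 2 unitary pseudogenes (PSMD5-AS1 and TP73-AS1). The second symbol column of the table gives 42 another name, 22 of them with the ending -DT for divergent transcript, the class of AP1AR-DT itself. Together the 191 held 0.237% to 0.282% of all counts of a library, and they lie on 23 chromosomes. Few were abundant, with a mean raw count of 1000 or more in 12, a median of 82 and a maximum of 7282, while the median of the sense genes was 488.5.

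Per kilobase of the longest annotated transcript, the median normalized count was 30.5 for antisense RNAs, 120 for sense genes and 116 for all genes with a mean count of 20 or more. Within the 174 pairs whose sense gene also had a mean count of 20 or more, the antisense level per kilobase was at the median 26% of the sense level. It was under 10% in 58 pairs and under 1% in 11, and it was above the sense level in 45. The Spearman correlation of both levels was 0.20 across these pairs, given as a description of genes within the same libraries.

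Several of the most abundant stood above their sense genes. TAPT1-AS1 had the highest level, 3268 normalized counts per kilobase, against 29.3 for TAPT1. NCBP2-AS2 followed with 2719 against 429 for NCBP2, a subunit of the nuclear cap-binding complex, and MMP24-AS1 with 2490 against 131 for the membrane metalloproteinase gene MMP24. Both of these antisense genes are annotated as protein-coding. Exons of TAPT1-AS1 lie in part opposite RPS21P4. Those of MMP24-AS1 lie in part opposite MMP24 and MT1P3, and in part within RP4-614O4.11 on the same strand. The levels of TAPT1-AS1 and MMP24-AS1 may thus include reads of those genes. C17orf76-AS1, also named SNHG29 and known as a host of small nucleolar RNAs, had 1937 per kilobase. No gene of the symbol C17orf76 was in the table, but FAM211A, whose exons lie opposite it, was, and the pair was not compared. AGAP2-AS1 had 1747 against 192 for AGAP2, but 91.9% of its exon bases lie within exons of OS9 on the same strand and 57.7% opposite exons of AGAP2, so its count is uncertain. VPS9D1-AS1 had 665 against 462 for VPS9D1.

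Others were abundant beside a still more abundant partner. VIM-AS1 had 1067 per kilobase, 3.38% of the level of VIM, the intermediate filament gene and mesenchymal marker. Its raw counts were 1225, 4563, 2003 and 1011 in control 1, control 2, AP1AR-DT_OE 1 and AP1AR-DT_OE 2, highest in control 2, where PRRX1 was also highest. VIM had raw counts of 81731, 88046, 84732 and 83200. Normalized, VIM had 93086, 67917, 92942 and 82579, so it was lowest in control 2. The Log2FC of VIM-AS1 was -0.62 (SE 0.57) and became 0.21 without control 2, and 30.9% of its exon bases lie opposite exons of VIM. MAFG-AS1 had 686 per kilobase against 898 for MAFG. None of these 8 abundant RNAs passed the test, and except for VIM-AS1 their Log2FC values lay between -0.13 and 0.13.

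**Figure D3:**
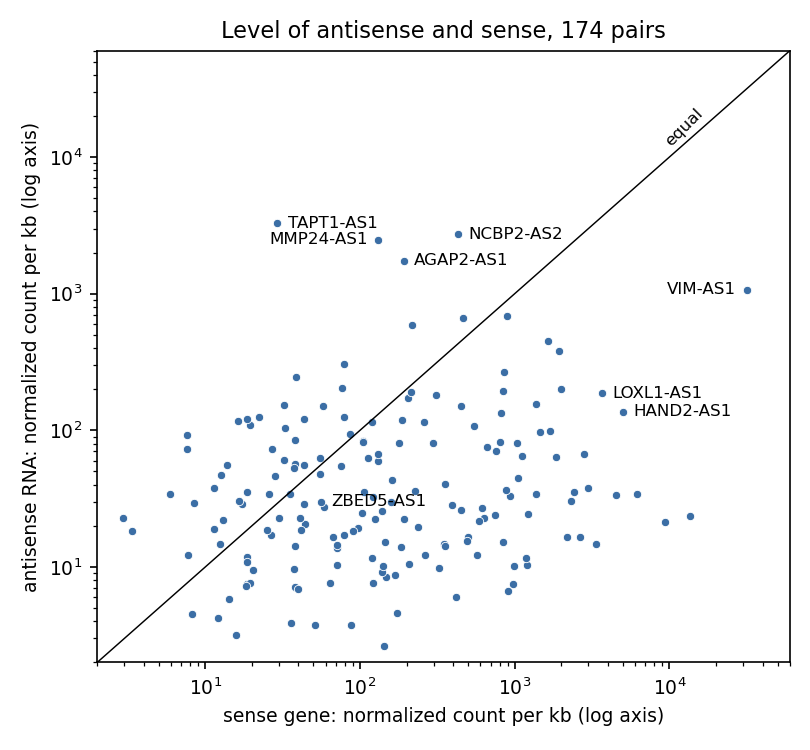
Mean normalized count per kilobase of the antisense RNA against that of its sense gene (both log axes) for the 174 pairs with both mean counts at 20 or more; the line marks equal levels. Most points lie below the line, 45 lie above it, and TAPT1-AS1 lies furthest above.

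Antisense RNAs of the genes that define the adrenergic state overlapped between groups. HAND2-AS1, head to head with the gene of the sympathetic factor HAND2, had 910 and 394 counts in control and 906 and 570 in AP1AR-DT_OE. Its exons lie in part opposite exons of HAND2, so its counts may include reads of that gene. GATA3-AS1 had 547, 646, 522 and 687. For both the groups overlapped, with Log2FC values of 0.22 (SE 0.61) and 0.16 (SE 0.47), and HAND2 and GATA3 were at 0.02 and -0.04. Levels per kilobase were 2.71% of HAND2 and 31.6% of GATA3. HAND2-AS1 was higher in both libraries numbered 1, and its Log2FC was -0.40 without control 2 and 1.36 without control 1 (unadjusted p = 0.0107, adjusted p = 1.0, DESeq2).

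Other well-studied antisense RNAs followed the library number more than the group. OIP5-AS1, known as Cyrano and as a binder of miR-7, had 423 and 1604 counts in control and 501 and 1056 in AP1AR-DT_OE. Its exons overlap those of NUSAP1 on the same strand and those of OIP5 on the opposite strand, so reads of those genes may be included. FGD5-AS1 had 1149, 4110, 1275 and 2548, and MAGI2-AS3, against a synaptic scaffold gene, had 157, 595, 181 and 343. In all of them both libraries numbered 2 were above both numbered 1 and the groups overlapped. The Log2FC values were -0.11, -0.19 and -0.24, and turned to 0.74, 0.60 and 0.60 without control 2. NNT-AS1 (114, 320, 113 and 184), TTN-AS1 (29, 90, 21 and 69) and ZEB1-AS1 (58, 150, 54 and 70), the last beside the gene of an epithelial-mesenchymal repressor, had the same order. Across the 123 antisense RNAs with a mean normalized count of 50 or more, the Spearman correlation of GC content with the log2 ratio of control 2 to control 1 was -0.55, and with that of AP1AR-DT_OE 2 to AP1AR-DT_OE 1 it was -0.41. The part of GC content in these values was not tested.

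MCM3AP-AS1, opposite a DNA replication cofactor gene, had 94, 116, 93 and 64 counts (Log2FC -0.25). DDX11-AS1, beside a helicase gene of sister chromatid cohesion, had 23 and 48 in control and 18 and 14 in AP1AR-DT_OE. Its groups did not overlap, and its Log2FC of -0.91 had an SE of 1.05. DDX11-AS1 met the minimum only through its control mean, and both AP1AR-DT_OE counts lay close to the floor of 12. Nothing is read from the gap between its groups. The locus RNA of the p15 tumour suppressor, CDKN2B-AS1, had counts of 0, 9, 0 and 0 and fell below the minimum, as did ZRANB2-AS1 (0, 7, 0 and 0) and ZRANB2-AS2 (0, 4, 0 and 0), all at or under the floor in every library. FOXD3-AS1 was not analysed here. GATA2-AS1 and ATP2C2-AS1 carry clone names in the symbol column and so were not among the 191, with 88, 105, 61 and 113 counts and 17, 47, 17 and 26 counts.

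Grouped by the family of the sense gene, 1 of 7 antisense RNAs at zinc finger loci was called, against 0.137% of all genes. This was ZBED5-AS1, which met the minimum only through its control mean, so nothing is read about the family. None was called of 11 at loci of developmental transcription factors, 7 at cell cycle and DNA maintenance loci, 7 at solute carrier and mitochondrial loci or 159 at all others. Median Log2FC values were 0.21, 0.09, -0.25, 0.09 and -0.05 in that order. The developmental group was taken by symbol and holds PAXBP1-AS1, PAXIP1-AS1 and PAXIP1-AS2, whose sense genes encode partners of PAX factors. Besides ZBED5-AS1 the zinc finger group ran only from -0.10 (ZBTB11-AS1) to 0.27 (ZNF582-AS1). FOXD2-AS1, which met the minimum only through its AP1AR-DT_OE mean, had 14, 25, 62 and 24 counts and a Log2FC of 1.38 (SE 1.00). AP1AR-DT_OE 1 alone was high there. Among other non-coding classes with the same minimum, none of 2 symbols ending in -AS without a number and none of 3 ending in -IT and a number was called.

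Changes of antisense RNAs and of their sense genes were then set side by side. Both had the same sign of Log2FC in 93 of 183 pairs, and in 89 of the 174 pairs with a sense mean count of 20 or more. Across those 174 the Pearson correlation of both Log2FC values was -0.08 and the Spearman correlation 0.03, as a description across genes, which share libraries and in part reads. The log2 ratio of antisense to sense shifted by a median of -0.01 between groups. Leaving out 1 library moved this median to between -0.12 and 0.14.

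**Figure D4:**
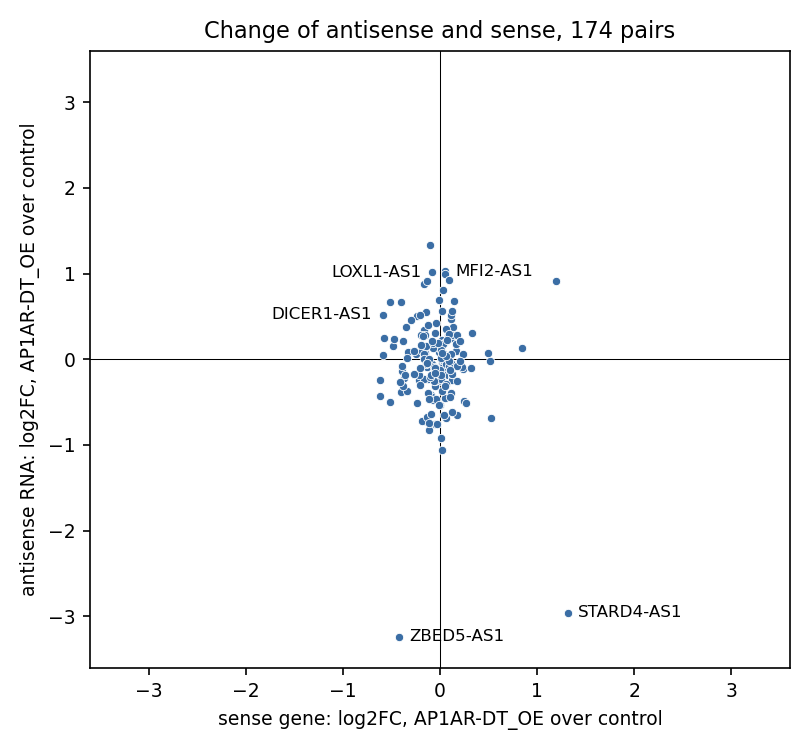
Log2FC of AP1AR-DT_OE over control of the antisense RNA against that of its sense gene for 174 pairs; each point is a pair, and lines mark 0. The cloud is centred on 0 with a Pearson correlation of -0.08, with ZBED5-AS1 at -3.24 beside a ZBED5 value of -0.43 and STARD4-AS1 at -2.96 beside a STARD4 value of 1.32.

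By position, 117 antisense RNAs lay head to head with the sense gene, 37 nested in it and 29 tail to tail, and 8 could not be placed. Head to head includes RNAs that start inside the sense gene, such as STARD4-AS1, and so is wider than a shared promoter. The called RNA and the other RNAs with an unadjusted p under 0.05 were all head to head (3 of 117), with 0 of 37 nested and 0 of 29 tail to tail. ZBED5-AS1 and STARD4-AS1 met the minimum only through their control mean, so nothing is read from these counts. The difference between positions was not tested. For 133 pairs both starts had a RefSeq window. The antisense start lay within 1 kb upstream of the sense start in 46 pairs, at a median of -144 bases, within 1 kb downstream in 29 and further away in 58. Among the 46, Log2FC values ran from -3.24 (ZBED5-AS1) to 0.91 with a median of -0.02, and 23 of them were above 0.

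**Figure D5:**
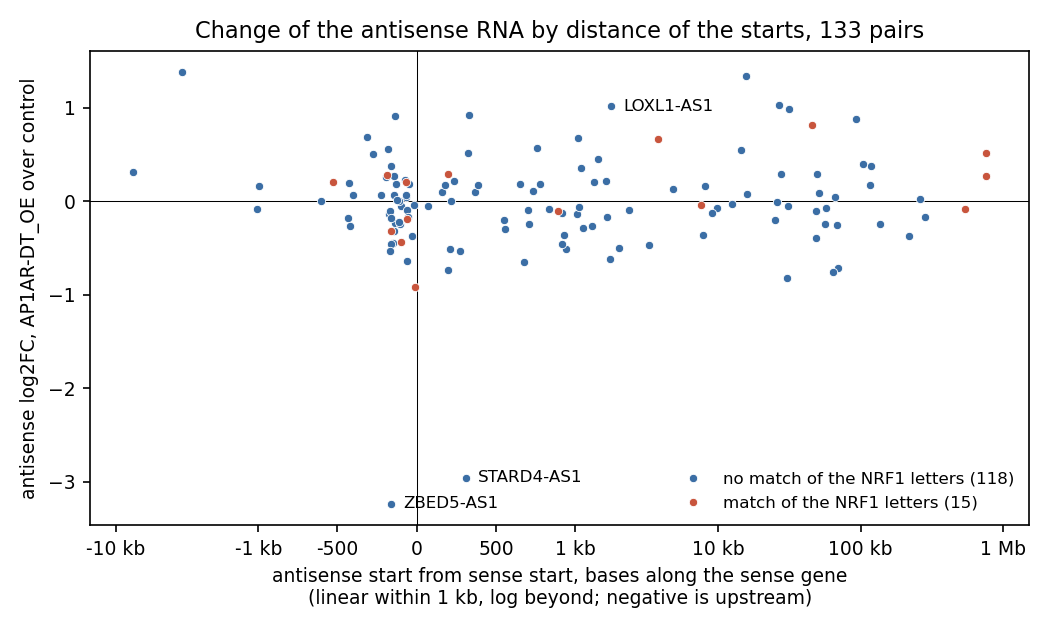
Log2FC of the antisense RNA against the distance of its start from the sense start, in bases along the sense gene (linear within 1 kb and log beyond, negative upstream), for 133 pairs; red points have the NRF1 letters in their start window. Many starts gather just upstream of 0, with changes on both sides of 0, and ZBED5-AS1 at -164 bases and STARD4-AS1 at 309 lie apart.

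The start windows were rich in CpG, as the sequences above show. Over the 159 antisense RNAs with a RefSeq window the median was 27 CpG and 67.3% GC, against 28 and 67.7% over 154 windows of sense genes and 14 and 58.7% over all 35116 windows. The LOXL1-AS1 window, with 3 CpG and 57.7% GC, was thus unlike most. NRF1 is a transcription factor that binds palindromic GC-rich letters, and it was studied in these cells with AP1AR-DT. Its core was searched as GCGCA, any base, GCGC, which on the other strand reads GCGC, any base, TGCGC. It was found in 18 antisense windows (11.3%), in 15 sense windows (9.74%) and in 5.78% of all windows, and the exact palindrome, GCGCA followed directly by TGCGC and included in these counts, in 2.52%, 2.6% and 1.24%. Where the starts of a pair lie close, both windows hold some of the same bases. A site can then count in both sets, so the antisense and sense shares are not separate observations. A match describes letters and not a bound site. Of the windows above, UBAC2-AS1 had 2 matches, of which 1 was the palindrome, and DDX11-AS1, whose start lies 13 bases upstream of that of DDX11, had the palindrome once. The 18 antisense RNAs with a match had Log2FC values from -0.91 to 0.81 and a median of 0.04, against -0.05 for the 141 without. The lowest value was that of DDX11-AS1, which met the minimum only through its control mean. None of the 18 was called or had an unadjusted p under 0.05 (DESeq2).

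Exon overlap limits how far these counts belong to the antisense strand. In the annotation used to measure it, 152 of the 191 had exon sequence opposite an exon of another gene, with a median of 6.55% of their exon bases over all 191, 12 had at least 50%, and the highest share was 84.6%. A further limit is overlap on the same strand, found for 26. The 37 RNAs with no overlap on either strand had a median Log2FC of -0.02 and none was called. The 44 with at least 20% of exon bases opposite another gene had a median of -0.01 with none called.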

How the data were processed

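The data were gene-level RNA-seq counts of SK-N-SH cells, 2 control and 2 AP1AR-DT_OE libraries, grouped by the sample titles. The deposited counts were whole numbers, not normalized, made by the authors. The study's methods name HISAT2 on hg19 and StringTie, whereas the submitters' processing notes list TopHat2 2.0.4, SAMtools, HTSeq, Cuffdiff and edgeR 2.6.12, so the counter is uncertain. The annotation is not given in the sources used here. Gene coordinates are those of the table (GRCh38). Its columns of fold changes and p-values from the authors' own DESeq2 and edgeR comparison were not used.

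All 24014 genes were fitted with DESeq2 1.42.0 in R 4.3.3 (median-of-ratios size factors, no covariate, two-sided Wald test, Benjamini-Hochberg adjustment, called under 0.05). The script was tested on simulated data. Ratios to the sense gene used normalized counts plus 1. The antisense RNAs and lists were chosen with earlier results of these data known. RNAs named were those called, the 6 largest shifts in each direction with a mean normalized count of 50 or more and groups apart, the 8 highest per kilobase, the 2 nearest the count minimum on each side, and 17 listed ones. STARD4-AS1 and the extremes of groups were chosen after their values were seen. Head to head and tail to tail allowed a gap of up to 10000 bases or an overlap of the gene ends. Exon overlap, length and GC content came from GENCODE models mapped to GRCh37, and start windows from RefSeq (GRCh38.p14). Alternatives were no independent filtering, a likelihood-ratio test, TMM factors, a filter of 10 counts in 2 libraries, a replicate block, counts divided by 4, a GC correction (lowess span 0.3), the edgeR 4.0.16 quasi-likelihood test, pseudocounts of 0.5 and 5, a mean count of 100 or more, RNAs without exon overlap, and leaving out each library.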

Additional observations from a re-analysis of the deposited data

How the results depend on the processing

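The number of antisense RNAs called was 1 as reported and 1 (ZBED5-AS1) without independent filtering, with TMM factors, with the filter of 10 counts in 2 libraries, with the GC correction and with the replicate block. It was 0 with the likelihood-ratio test, with counts divided by 4 and with the quasi-likelihood test of edgeR (2 had an unadjusted p under 0.05), which called 24, 15 and 0 of all genes and where the Log2FC of ZBED5-AS1 was -3.24, -3.29 and -3.23. It was 0 among the 80 RNAs with a mean count of 100 or more and 0 among the 37 without exon overlap, since ZBED5-AS1 is in neither set. It was 2 (ZBED5-AS1 and LOXL1-AS1) with the GC correction and replicate block together, which also called 1 sense gene, PTOV1, and 60 of all genes; the adjusted p of LOXL1-AS1 was then 0.00928 (DESeq2), against 0.159 with the block alone. Leaving out each library gave 0 to 1 calls, the 1 being STARD4-AS1 without control 1, where 90 of all genes were called. It gave 0 sense genes, a median antisense to sense ratio from -0.12 to 0.14 and a median Log2FC of -0.05 to 0.07. The cause was not tested.

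The replicate numbers are not said to mark a batch. Deviations of same-numbered libraries correlated at 0.49 over 13298 genes, and the replicate block left the number of antisense RNAs called at 1. The Log2FC of STARD4-AS1 (-2.96) was -1.61 with the block (unadjusted p = 0.126, DESeq2) and -1.54 with block and GC correction. Among RNAs named, C17orf76-AS1 (Log2FC 0.02) turned to -0.000155 with the block and -0.0172 with block and GC correction, NCBP2-AS2 (0.07) to -0.0108 and RASAL2-AS1 to -0.14 with the GC correction, and OIP5-AS1 (-0.11) to 0.0518 with it and 0.0523 with both.

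Leaving out a library turned the sign of these Log2FC values, given as the lowest to the highest: AGAP2-AS1 -0.25 to 0.51, C17orf76-AS1 -0.23 to 0.21, FGD5-AS1 -0.70 to 0.60, HAND2-AS1 -0.40 to 1.36, MAFG-AS1 -0.30 to 0.77, MAGI2-AS3 -0.77 to 0.60, MCM3AP-AS1 -0.63 to 0.0434, MMP24-AS1 -0.24 to 0.53, NCBP2-AS2 -0.00518 to 0.15, NNT-AS1 -0.69 to 0.25, OIP5-AS1 -0.66 to 0.74, RASAL2-AS1 -0.47 to 0.72, STARD4-AS1 -3.91 to 1.01, TAPT1-AS1 -0.0521 to 0.21, TTN-AS1 -1.17 to 0.48, VIM-AS1 -1.30 to 0.21, VPS9D1-AS1 -0.57 to 0.54. That of ZBED5-AS1 stayed within -3.87 to -2.80 without a call. With 2 libraries a group, the median SE of 0.71 sets what these data can detect.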
